A study of Mus musculus with 6 samples.

Results

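The genes described here encode the proteins of the mitochondrial ribosome, Mrpl for the large subunit and Mrps for the small one. They were chosen by name, as every gene whose symbol in the platform's probe table is Mrpl or Mrps followed by a number and at most 1 letter, with at least 1 probe set naming that gene alone. The rule found 76 genes, 47 Mrpl and 29 Mrps, among 18193 genes with a probe set of their own, and all 76 were bright enough to be tested. Mrpl30 and Mrpl53 share their probe sets with another gene and are not among them. The arrays, 1 per mouse, are Affymetrix mouse arrays hybridised with RNA from the left heart ventricle of males of C57BL/6, an inbred strain prone to obesity on such a diet. All 6 mice were 6 months old and had been on a high fat diet for 16 weeks. 3 received placebo and 3 received an agent labelled Lira, a name that the labels do not spell out, and the sources used here give no dose, route or duration for it. The design text mentions 10 mice, and the other mice were not analysed here. The comparison asks what Lira did to the heart of obese mice.

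Mitochondria keep their own ribosome, which translates the few proteins that mitochondrial DNA encodes, all of them subunits of the respiratory chain and ATP synthase. Its RNAs are mitochondrial, but all of its proteins are encoded in the nucleus, made on cytosolic ribosomes and imported. Many are relatives of bacterial ribosomal proteins and others are found only in mitochondria. The heart depends on this machinery because it draws most of its ATP from oxidative phosphorylation, and inherited defects of several mitoribosomal proteins cause cardiomyopathy.

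The labels give 2 different sources for the RNA, left ventricle in the sample description and blood in the extraction text. Cardiomyocyte transcripts such as Myh6 and Tnnt2 gave signals of at least 31552 and 34000.3 on every array, and the ventricular light chain Myl2 at least 24171. The erythroid markers Alas2 and Hba-a1 reached at most 63.9 and 31.8, and the atrial light chain Myl7 at most 17.3. Every array had been scaled to the same mean of 150 after trimming 2% at each end, and the median signal lay between 28.6 and 39.6. Arrays have no read depth, and their number limits the precision. The ratio of the 3' to the 5' control probe set was 0.781 to 0.830 for Gapdh and 1.55 to 1.74 for beta-actin, with overlapping groups. Whether the mice of a group were housed or processed together is not given, so the p-values measure the spread between these 6 samples.

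The promoters of these genes are shown first, because the members share features there that their choice by name did not use. RefSeq windows of 300 bases, from 250 before to 50 after the annotated start on GRCm38.p6, were found for 67 of the 76 genes. They were searched on both strands for the letters CCGGAAG, the core bound by ETS factors such as GABP, for GCGCATGCG, part of the site of NRF1, and for AAGATGGC, part of the site of YY1. These factors are known regulators of nuclear genes for mitochondrial proteins. The ETS letters were in 24 of the 67 windows (35.8%), against 9.12% of all 27025 genes with a window and 17.2% of the 10242 tested genes with one. The NRF1 letters were in 7 (10.4%, against 1.81% and 3.46%) and the YY1 letters in 12 (17.9%, against 2.88% and 4.58%). By subunit, the NRF1 letters were in 6 of 41 Mrpl windows (14.6%) and 1 of 26 Mrps windows (3.85%). The Mrps share was thus near that of the tested genes. The ETS letters were in 13 Mrpl (31.7%) and 11 Mrps windows (42.3%), and the YY1 letters in 6 (14.6%) and 6 (23.1%). At least 1 of the 3 was in 36 windows, 22 of 41 Mrpl and 14 of 26 Mrps. A match is a string of letters and not a shown binding site.

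Many of these genes also start back to back with another gene. In 24 of the 67 (35.8%) a gene on the other strand starts within 1000 bases upstream, against 10.5% of all genes with a window and 16.2% of the tested ones. The neighbours are of many kinds, among them the chaperonin subunit Tcp1 beside Mrpl18 and the condensin subunit Ncapd2 beside Mrpl51. Mrpl49 is paired with Fau, which encodes a cytosolic ribosomal protein as a fusion, Mrps12 with the mitochondrial seryl-tRNA synthetase Sars2, Mrpl47 with the complex I subunit Ndufb5 and Mrpl32 with the proteasome subunit Psma2. Mrps11 and Mrpl46 are both members, and their annotated starts lie 42 bases apart.

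Windows of 4 members are printed because the values of these genes or the paired start are described further on, with the matched letters in capitals and the rest in lower case, each 5′ to 3′ in the direction of its gene. Mrpl49 (chr19:6057706-6058005 on the - strand) had the largest difference of all members and carries the YY1 letters. Mrpl22 (chr11:58171414-58171713 on the + strand) carries the ETS and NRF1 letters close together. Mrps18a (chr17:46110754-46111053 on the + strand) carries the ETS and the YY1 letters. Mrps11 (chr7:78782881-78783180 on the + strand) carries the YY1 letters as their reverse complement, before its own start.
Mrpl49: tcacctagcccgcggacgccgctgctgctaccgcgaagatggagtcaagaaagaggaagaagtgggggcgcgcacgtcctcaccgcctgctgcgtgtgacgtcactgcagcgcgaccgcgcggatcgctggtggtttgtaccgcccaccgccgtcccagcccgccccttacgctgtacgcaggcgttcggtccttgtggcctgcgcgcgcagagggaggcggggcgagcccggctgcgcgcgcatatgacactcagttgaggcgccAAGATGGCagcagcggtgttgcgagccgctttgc
Mrpl22: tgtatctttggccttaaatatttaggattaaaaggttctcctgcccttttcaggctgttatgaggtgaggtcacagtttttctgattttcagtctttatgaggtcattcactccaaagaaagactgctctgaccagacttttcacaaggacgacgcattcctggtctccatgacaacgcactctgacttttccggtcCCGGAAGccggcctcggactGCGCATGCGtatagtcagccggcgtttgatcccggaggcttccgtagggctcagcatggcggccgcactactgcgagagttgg
Mrps18a: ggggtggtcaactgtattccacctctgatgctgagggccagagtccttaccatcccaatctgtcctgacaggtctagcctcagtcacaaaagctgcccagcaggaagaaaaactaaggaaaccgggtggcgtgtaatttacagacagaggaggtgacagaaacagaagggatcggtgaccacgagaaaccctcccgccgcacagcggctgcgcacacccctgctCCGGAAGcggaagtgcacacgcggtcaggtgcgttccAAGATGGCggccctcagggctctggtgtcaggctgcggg
Mrps11: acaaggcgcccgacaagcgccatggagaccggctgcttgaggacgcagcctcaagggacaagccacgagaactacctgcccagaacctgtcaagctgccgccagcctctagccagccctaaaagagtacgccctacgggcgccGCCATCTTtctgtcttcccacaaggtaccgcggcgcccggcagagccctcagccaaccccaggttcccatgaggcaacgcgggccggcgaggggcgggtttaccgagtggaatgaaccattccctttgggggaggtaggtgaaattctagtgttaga

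No mitochondrial ribosomal protein gene passed the test for a difference between Lira and placebo, and most members had nearly the same level in both groups. In 65 of the 76 the mean signal with Lira was within 10% of the mean with placebo, and the members ranged from 18.8% lower to 33.4% higher. The middle of the family lay slightly lower with Lira, in both subunits alike. Differences are given on the scale log2(signal + 16), Lira minus placebo, with the standard error (SE) from limma, a linear model fitted across all 12736 genes tested. 0 of 76 members had an adjusted p under 0.05 (Benjamini-Hochberg over all genes tested), where 0.055% of all genes tested did (7 genes), and the smallest adjusted p of a member was 0.55. At an unadjusted p under 0.05, 1 member was higher, where 2.91% of all genes tested were, and 1 was lower, where 3.12% were. The signals of the 3 Lira mice all lay above those of the 3 placebo mice in 2 members (5.98% of all genes tested) and all below in 2 (5.41%). These shares are at or below the background.

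**Figure D1:**
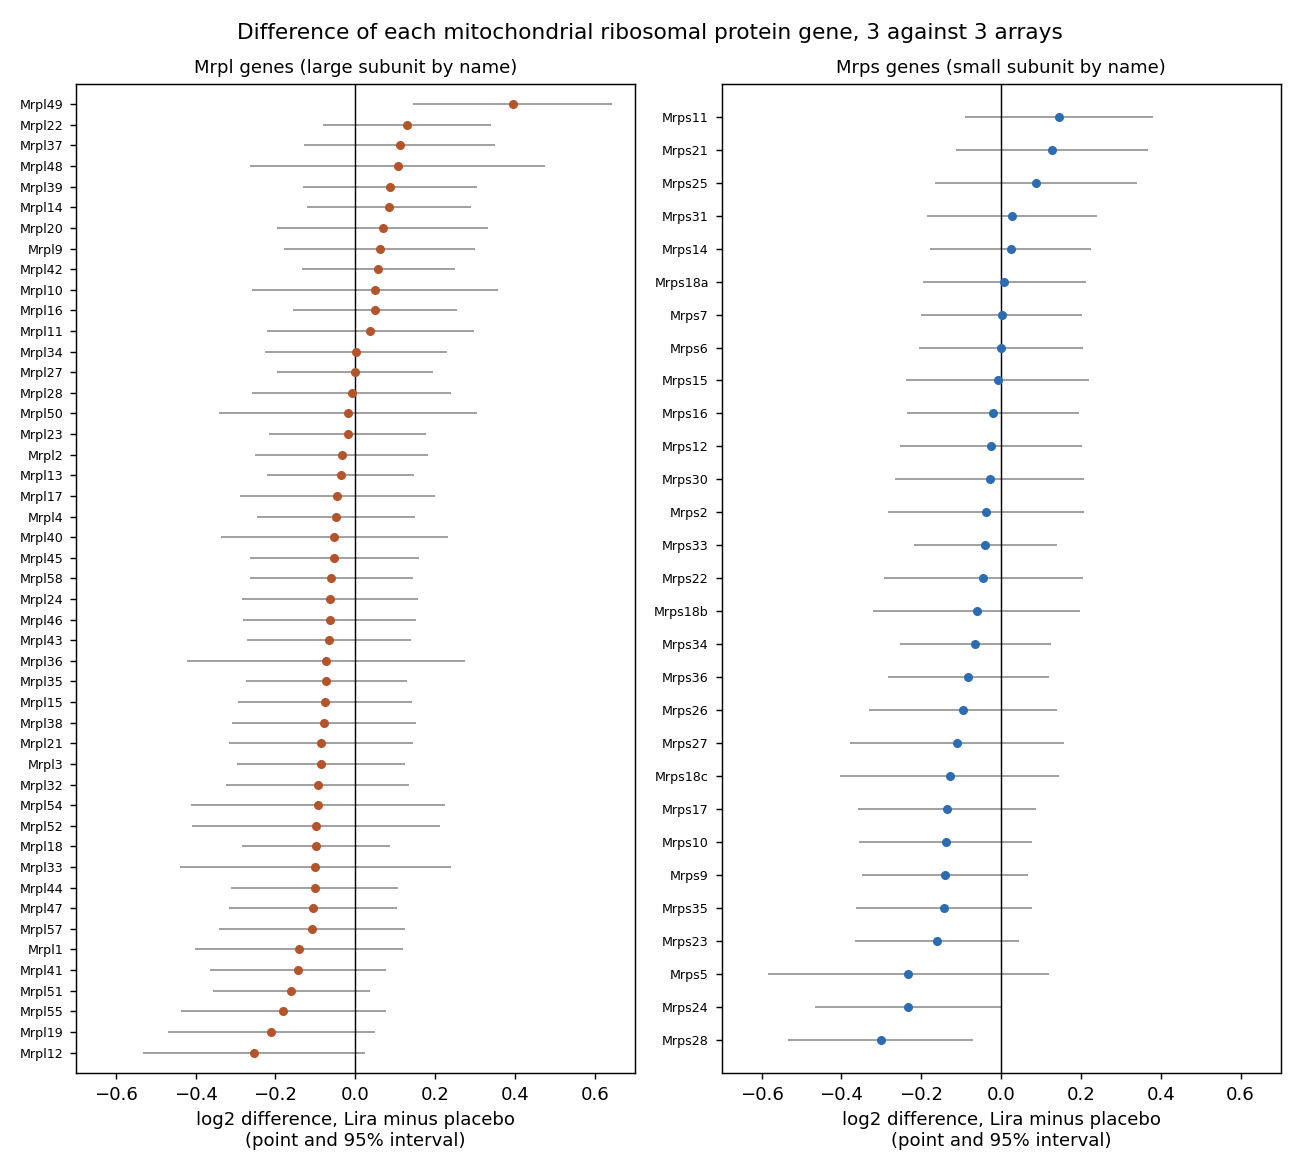
Log2 difference between 3 Lira and 3 placebo arrays (x axis, on the log2(signal + 16) scale) for each of 47 Mrpl genes (left) and 29 Mrps genes (right), as a point with its 95% interval from limma. Mrpl49 and Mrps28 are the members whose intervals do not reach 0, and 72 of 76 intervals lie between -0.5 and 0.5.

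The values of the members were more precise than those of a typical gene, and the members were bright. Their mean signals ran from 264 to 8103, with the median member at percentile 89.5 of the genes tested. The pooled SD between mice of a group was 0.12 in the median member and 0.19 over all genes tested, on the log2 scale. The 95% interval of the difference lay wholly between -0.5 and 0.5 in 72 members, or 94.7%, against 50.1% of all genes tested. The widest bounds over all members were -0.58 and 0.64. An absolute difference over 0.25 was measured in 3 members (Mrpl49, Mrps28 and Mrpl12), or 3.95%, against 21.4% of all genes tested.

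Among the proteins of the large subunit, Mrpl49 stood furthest from 0. It encodes a protein of the large subunit with no bacterial relative, and its Entrez gene ID is 18120. Its signals were 367, 358 and 349 with placebo and 468, 426 and 539 with Lira, in the order of replicates 1 to 3. The groups did not overlap, and the placebo mice lay close together. The difference was 0.39 ± 0.12 (SE, 3 mice per group, 95% interval 0.15 to 0.64), with an unadjusted p of 0.0045 and an adjusted p of 0.55 in limma. Its second probe set, nearly as bright, gave 364 ± 45.4 with placebo and 408 ± 39.0 with Lira (SD), a log2 difference of 0.16. Its divergent neighbour Fau differed by 0.066.

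The other large-subunit members with higher means differed by less. Mrpl22, of the protein family that lines the exit tunnel for the growing chain, gave 1163, 1109 and 1273 with placebo and 1284, 1201 and 1396 with Lira. Its groups overlapped, and the difference was 0.13 ± 0.10 (adjusted p = 0.89, limma). Mrpl39, one of the mitochondria-specific proteins, gave 4094, 3811 and 4618 with placebo and 4075, 4221 and 5023 with Lira. The highest signal of each group was that of replicate 3. Mrpl42, another mitochondria-specific protein, gave 7552, 7837 and 8407 with placebo and 7419, 8508 and 8894 with Lira. Its lowest and its highest signal were both in the Lira group. Mrpl37 gave 376, 375 and 406 with placebo and 386, 414 and 456 with Lira, and Mrpl14, of the subunit interface, 963, 1055 and 1076 with placebo and 1157, 1027 and 1099 with Lira. Both overlapped, with the highest array in the Lira group. Mrpl37, Mrpl14, Mrpl39 and Mrpl42 differed by 0.11, 0.084, 0.087 and 0.058, with SE of 0.089 to 0.11.

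Mrpl12 had the lowest difference in the large subunit. It belongs to the stalk that recruits the GTPase factors of translation, and it has also been reported to bind the mitochondrial RNA polymerase. Its signals were 2644, 3076 and 4106 with placebo and 2629, 2684 and 2787 with Lira. The Lira mice lay close together, 1 of them just below the placebo range, and placebo replicate 3 lay far above all others. The difference was -0.25 ± 0.13 (95% interval -0.53 to 0.024, adjusted p = 0.84, limma), and without placebo replicate 3 it was -0.079, against -0.40 without placebo replicate 1.

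Mrpl19, a relative of bacterial L19, gave 419, 479 and 469 with placebo and 419, 422 and 337 with Lira. Lira replicate 3 was the lowest array and the rest overlapped. The difference was -0.21 ± 0.12 (adjusted p = 0.87), and all 4 of its probe sets had the same sign, including dim ones with mean signals of 59.2 and 3.9. Its second probe set, with a mean signal of 375, gave 404, 408 and 404 with placebo and 353, 326 and 356 with Lira. These signals did not overlap and differed by -0.22 ± 0.094. Mrpl51 gave 5736, 5448 and 6539.6 with placebo and 4876, 5459.5 and 5499 with Lira, a difference of -0.16 ± 0.091 with 1 Lira mouse below all placebo mice. Mrpl55 gave 1249, 1582 and 1791 with placebo and 1403, 1335 and 1295 with Lira, and placebo replicate 1 lay below every Lira mouse. Mrpl41, which is mitochondria-specific, gave 2079, 1900.0 and 2416 with placebo and 1894, 1812 and 2059 with Lira. The lowest array was a Lira mouse and the highest a placebo mouse, with overlap between them. Mrpl1, of the L1 stalk through which used tRNA leaves, gave 275, 317 and 339 with placebo and 284, 287 and 267 with Lira. Its Lira mice lay close together, 1 of them just below the placebo range. Mrpl55, Mrpl41 and Mrpl1 differed by -0.18 ± 0.12, -0.14 ± 0.10 and -0.14 ± 0.12. With placebo replicate 3 left out, Mrpl55 was -0.065 and Mrpl41 -0.050, and with placebo replicate 1 left out Mrpl55 was -0.32. The other probe sets of Mrpl1 did not share its sign: the next brightest differed by 0.0066, and a dim one with a mean signal of 19.1 by 0.51.

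**Figure D2:**
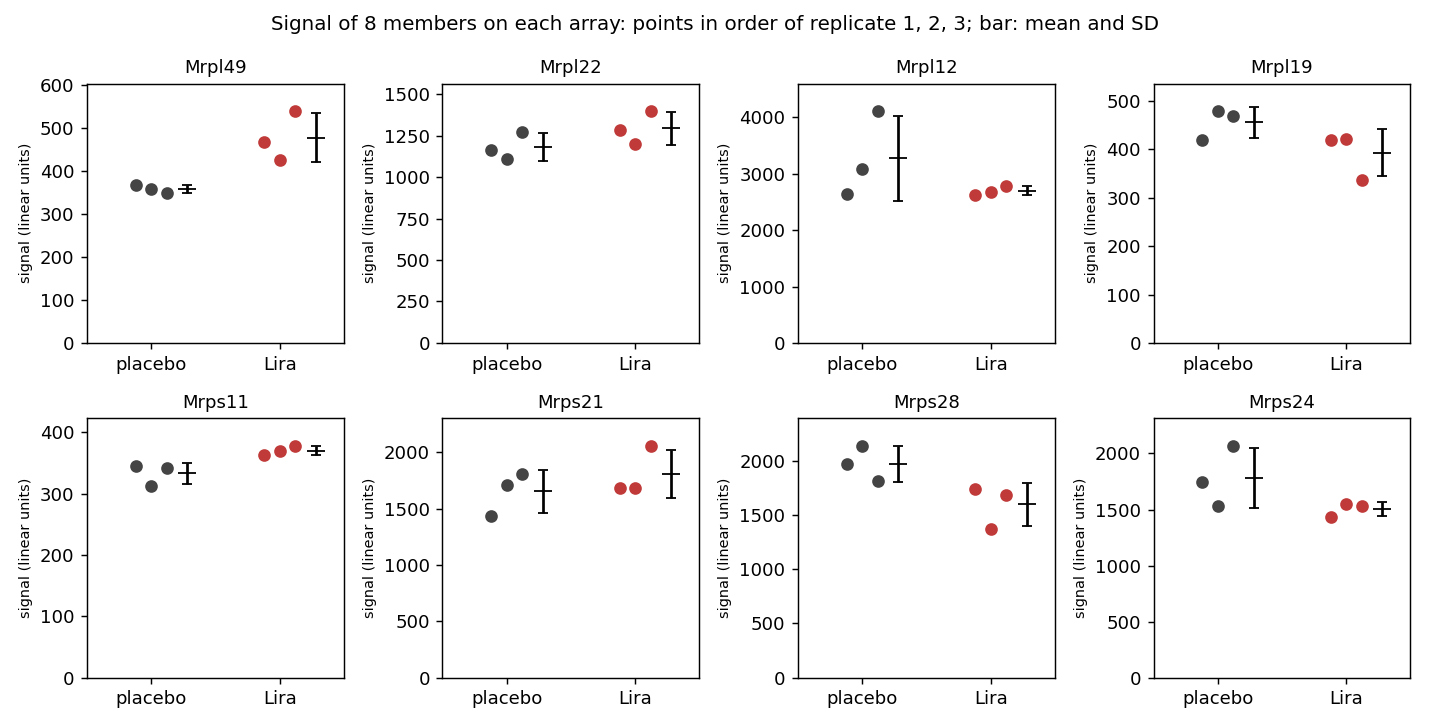
Linear signal (y axis, from 0) of 8 members on each of the 3 placebo (grey) and 3 Lira arrays (red), with the mean and SD of each group as a bar. Mrpl49 and Mrps11 are higher and Mrps28 is lower in every Lira mouse than in every placebo mouse, and the groups of the other 5 overlap.

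In the small subunit Mrps28 had the lowest difference of the whole family. It encodes a protein of the small subunit, and its Entrez gene ID is 66230. Its signals were 1966, 2134 and 1809.5 with placebo and 1737, 1374 and 1688 with Lira. Every Lira mouse lay below every placebo mouse, with 1809.5 and 1737 the nearest pair. The difference was -0.30 ± 0.11 (95% interval -0.53 to -0.071), with an unadjusted p of 0.014 and an adjusted p of 0.69 in limma. The gene has 1 probe set, so no second one could be compared.

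Mrps24, the mitochondrial relative of bacterial S3, gave 1743, 1535 and 2065 with placebo and 1436, 1547 and 1527 with Lira. The groups overlapped, and the difference was -0.23 ± 0.11 (adjusted p = 0.82, limma), with -0.33 without placebo replicate 2 and -0.12 without placebo replicate 3. Its second probe set had the other sign, with a difference of 0.066 at signals of 1170.5 with placebo and 1229.6 with Lira. Mrps5, a relative of bacterial S5, gave 310.3, 261 and 281 with placebo and 177, 271 and 283 with Lira. Its value rested on Lira replicate 1, which stood far below the other arrays, and without that mouse the difference was -0.031 in place of -0.23 ± 0.16. Mrps23 gave 1452, 1569 and 1599 with placebo and 1377, 1262 and 1495 with Lira, with 2 Lira mice below the placebo range. Mrps9 gave 959, 864 and 969 with placebo and 799, 853 and 877 with Lira, with 2 Lira mice below the placebo range and the other inside it. Mrps35 gave 1123, 1084 and 1101 with placebo and 873, 1093 and 1039.8 with Lira, and Lira replicate 1 was again the lowest of the 6 arrays. These 3 overlapped and differed by -0.16 ± 0.10, -0.14 ± 0.10 and -0.14 ± 0.10. Mrps10, named here only because of its values and not by the naming rule, is the other member with every Lira mouse below every placebo mouse. Its signals were 532, 575 and 587 with placebo and 508, 506 and 520.1 with Lira, a difference of -0.14 ± 0.10 (adjusted p = 0.88).

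The higher small-subunit members were few and their differences small. Mrps11, a relative of bacterial S11, gave 345, 313 and 342 with placebo and 362, 370.0 and 378 with Lira. The groups did not overlap, and the difference was 0.14 ± 0.11 (adjusted p = 0.89, limma). Mrpl46, its partner across the shared promoter, had the other sign, with 806, 842 and 881 with placebo and 734, 815 and 873 with Lira. Its groups overlapped, and the difference was -0.064 ± 0.10. Mrps21 gave 1437, 1712 and 1808 with placebo and 1684, 1679.6 and 2053 with Lira, and the lowest and the highest of the 6 signals were in different groups. It differed by 0.13 ± 0.11, with Mrps25 at 468, 424 and 480.4 with placebo and 454, 452 and 560.5 with Lira. The highest array for Mrps25 was Lira replicate 3, as it was for Mrps31, at 639, 596 and 633 with placebo and 613, 625 and 667 with Lira, and for Mrps14, at 1732, 1787 and 1963 with placebo and 1839, 1724 and 2015 with Lira. These 3 overlapped and differed by 0.087, 0.027 and 0.024.

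Some members were included for a known role. Mrpl3 and Mrpl44 are large-subunit genes in which human mutations cause cardiomyopathy. Mrpl3 gave 1219, 1098 and 1025 with placebo and 989, 1074 and 1077 with Lira, a difference of -0.086 ± 0.10. Its second probe set, at a mean signal of 519, gave 497, 645 and 574 with placebo and 440, 468 and 492 with Lira. These signals did not overlap and differed by -0.28 ± 0.11. The dimmer probe sets of Mrpl3, with mean signals of 138 and 33.9, had the other sign and differed by 0.050 and 0.22. Mrpl44 gave 1609, 1528 and 1704 with placebo and 1364, 1497 and 1658 with Lira, a difference of -0.10 ± 0.10, with the same sign on all 4 probe sets. On the probe sets used, the groups of both genes overlapped, with 1 Lira mouse below the placebo range for Mrpl3 and 2 for Mrpl44. Mrps16 and Mrps22 are small-subunit genes mutated in deficiencies of several respiratory complexes. Mrps16 gave 1535, 1381 and 1726 with placebo and 1443, 1547 and 1571 with Lira, and Mrps22 531, 515 and 630.1 with placebo and 552, 489 and 582 with Lira. Placebo replicate 3 was the highest array for both, and the differences were -0.020 ± 0.10 and -0.044 ± 0.12. Mrpl58, a peptidyl-tRNA hydrolase built into the large subunit that frees chains from stalled ribosomes, gave 1416, 1321 and 1365 with placebo and 1186, 1356 and 1397 with Lira. Lira replicate 1 was the lowest array, the rest overlapped, and the difference was -0.061 ± 0.095.

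Mammals have 3 relatives of bacterial S18, Mrps18a, Mrps18b and Mrps18c, which occupy different places in the ribosome. Mrps18a gave 1991, 2228 and 2343 with placebo and 2036, 2342 and 2218 with Lira. Mrps18b gave 397, 476 and 436 with placebo and 472, 385 and 397 with Lira. Mrps18c gave 984, 1327 and 1386 with placebo and 1069, 1235 and 1045 with Lira. The groups of each overlapped, and the differences were 0.0085 ± 0.094, -0.061 ± 0.12 and -0.13 ± 0.13, with 95% intervals of -0.19 to 0.21, -0.32 to 0.20 and -0.40 to 0.15. Mrps18a and Mrps30 carry small-subunit names but sit in the large subunit, and Mrps36 has been reassigned to the 2-oxoglutarate dehydrogenase complex. Mrps30 gave 423, 478 and 403 with placebo and 411, 438 and 427 with Lira, and Mrps36 2006, 1916 and 2277 with placebo and 1899, 1879 and 2067 with Lira. The groups of both overlapped, and they differed by -0.029 ± 0.11 and -0.082 ± 0.094.

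Large and small subunit genes were close to each other in the median difference and in the share that was lower. Of 47 Mrpl genes 34 were lower and 13 higher with Lira, and of 29 Mrps genes 21 were lower and 8 higher, which is 72.3% and 72.4% lower against 48.1% of all genes tested. The median difference was -0.061 for Mrpl and -0.044 for Mrps, against 0.0082 over all genes tested, and the lower quartiles were -0.10 and -0.14. The mean differences were -0.036 and -0.062, so Mrpl was the lower one by the median and Mrps by the mean. With Mrps18a and Mrps30 counted as large subunit and Mrps36 left out, the medians were -0.052 and -0.053. Members with a bacterial relative had medians of -0.047 (28 Mrpl) and -0.031 (16 Mrps), and mitochondria-specific ones of -0.062 (18 Mrpl) and -0.065 (11 Mrps). Mrpl55, Mrps18a and Mrps18b were left out of this split as unclassified. Mrps30 and Mrps36 were counted by name among the 11 Mrps. The members share the same 6 mice, so these medians are descriptions and were not tested.

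**Figure D3:**
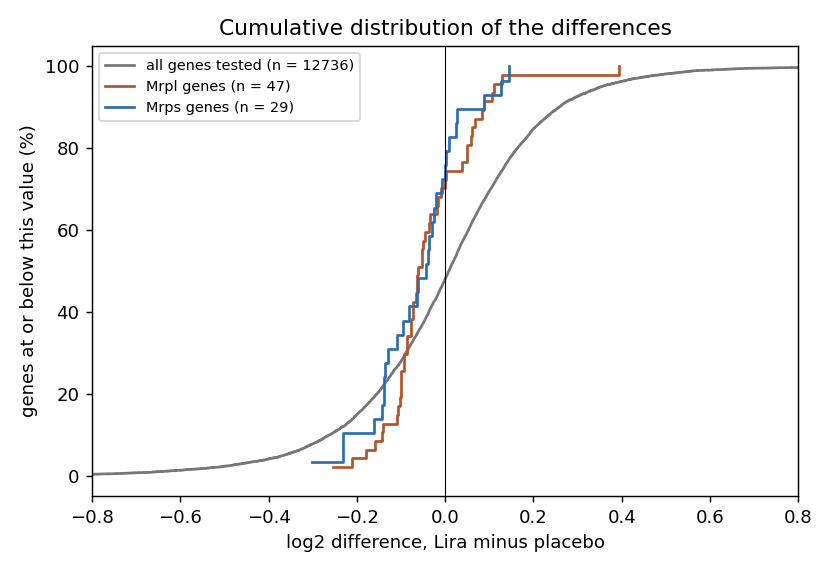
Share of genes (y axis, percent) with a log2 difference at or below the value on the x axis, for 47 Mrpl genes, 29 Mrps genes and all 12736 genes tested. Both subunits run steeper than all genes and reach 72.3% and 72.4% below 0, where all genes tested reach 48.1%.

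The size of the small shift of the family depended on single mice. For each array, the level of a family was taken as the median over its genes of the log2 value minus the gene's mean over all 6 arrays. For Mrpl it was -0.031, -0.026 and 0.13 with placebo and -0.092, -0.023 and 0.049 with Lira. Placebo replicate 3 stood above the rest and Lira replicate 1 below the rest. For Mrps the levels were -0.0094, -0.033 and 0.10 with placebo and -0.074, -0.024 and 0.033 with Lira, in the same order at both ends. On each array the Mrpl and Mrps levels differed by at most 0.027. The Mrpl and Mrps levels were therefore closer to each other within a mouse than mice of 1 group were to each other, whose SD was 0.089 with placebo and 0.071 with Lira for Mrpl, and 0.070 and 0.053 for Mrps.

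Member by member the same mice stood out. Placebo replicate 3 was the highest placebo array for 56 of 76 members (73.7%), against 36.3% of all genes tested. Lira replicate 3 was the highest Lira array for 47 (61.8%, against 32.1%), and Lira replicate 1 was the lowest of all 6 arrays for 27 (35.5%, against 15.9%). Without placebo replicate 3, 44 members were lower and the family median was -0.013, in place of 55 and -0.057. Without Lira replicate 1, 41 were lower and the median was -0.012. Without Lira replicate 3, 65 were lower, with a median of -0.079. Without placebo replicate 1, Lira replicate 2 or placebo replicate 2, 58, 54 and 56 members were lower. Single values were as open to 1 mouse: leaving out 1 array moved the difference by more than 1.5 times in 30 of the 33 members chosen by rule, all but Mrpl49, Mrps11 and Mrps9. Mrps28 was -0.20 without Lira replicate 2, and Mrpl19 -0.11 without Lira replicate 3.

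**Figure D4:**
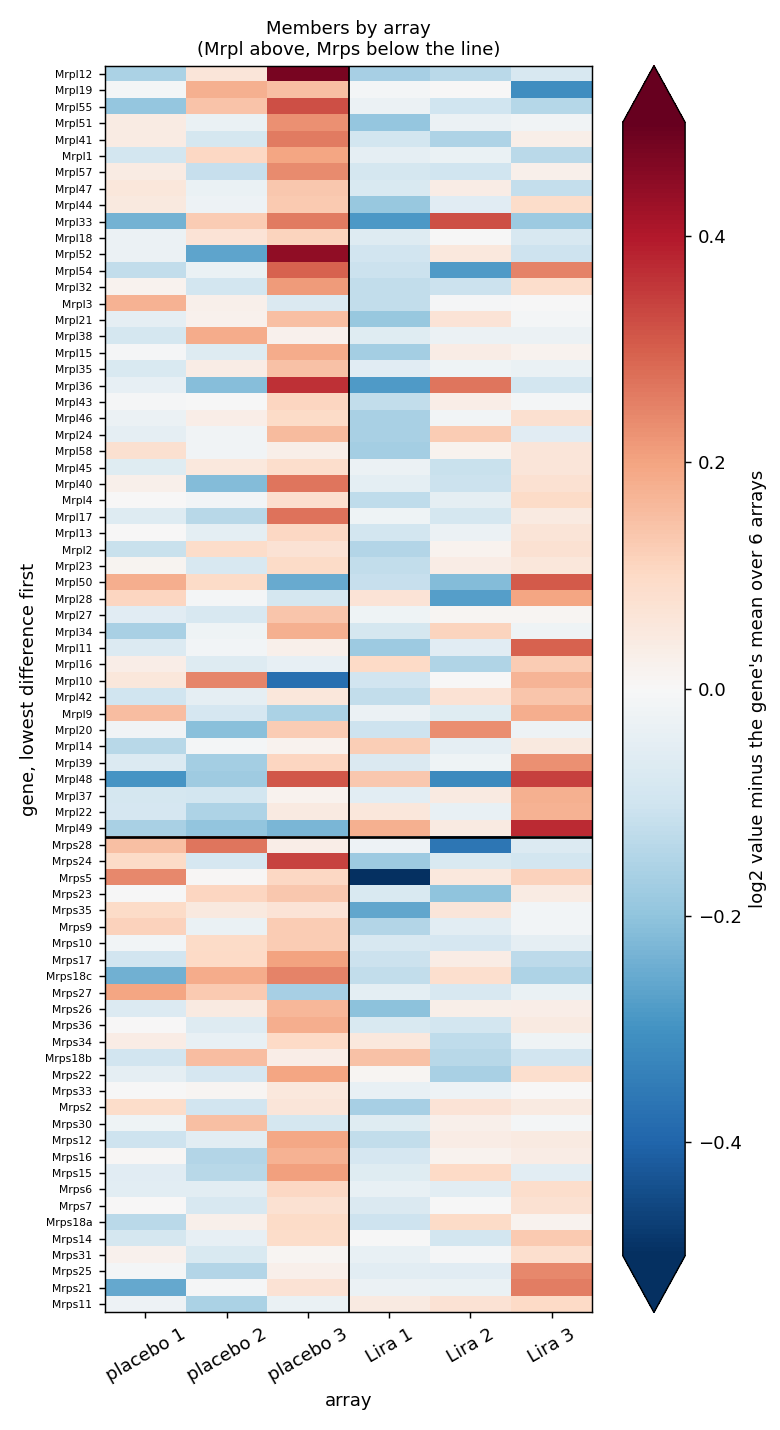
Level of each of the 76 members (rows, Mrpl above and Mrps below the line, lowest difference first) on each of the 6 arrays (columns), as the log2 value minus the gene's mean over 6 arrays. Placebo replicate 3 is the highest placebo array in 56 members, in both subunits, and Lira replicate 1 is the lowest of the 6 arrays in 27.

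The levels of related gene families across the mice are given for comparison. Cytosolic ribosomal protein genes, which serve the ribosome outside mitochondria, had levels of -0.10, -0.063 and 0.082 with placebo and 0.013, 0.034 and 0.022 with Lira. They were highest in placebo replicate 3, as the members were, but the other 2 placebo mice lay below every Lira mouse. Of 48 tested, 39 were higher and 9 lower with Lira, with a median difference of 0.062 and 0 past the adjusted threshold. Nuclear genes for subunits of the respiratory chain and ATP synthase, the complexes whose core subunits the mitoribosome makes, had levels of -0.054, -0.026 and 0.040 with placebo and -0.052, 0.10 and -0.014 with Lira. They were highest in Lira replicate 2, a mouse in which the members lay near their mean. Among the 79 tested, 46 had higher and 33 lower means, 0 passed the adjusted threshold, and the median was 0.0098. At an unadjusted p under 0.05 in limma, 1 gene was higher in each of the 2 families, against 2.91% of all genes tested. In each, 0 were lower, against 3.12%. Whether the shifts of these families differ was not tested.

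**Figure D5:**
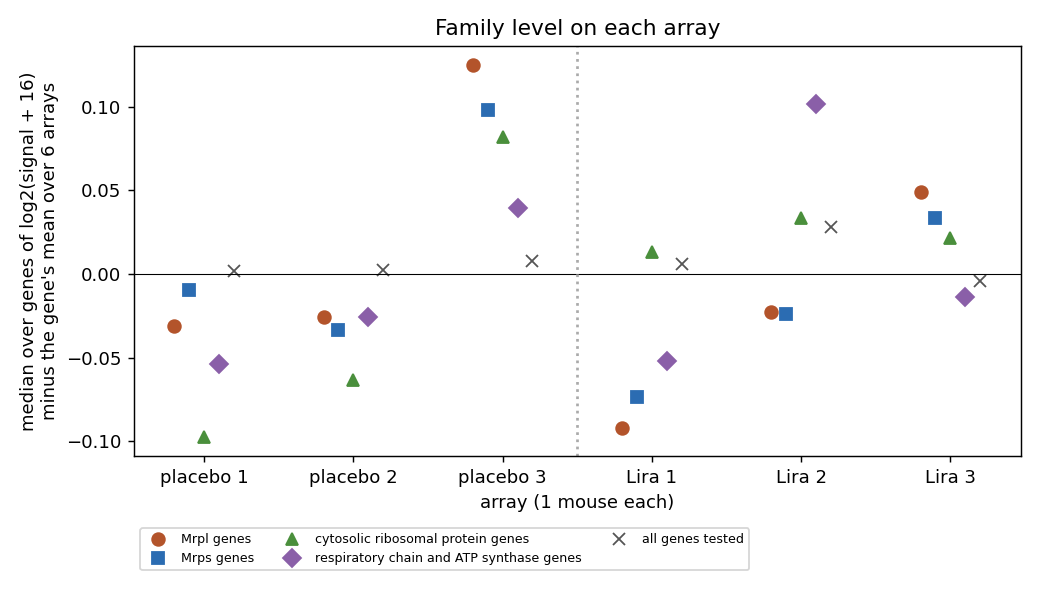
Level of each gene family (y axis, median over its genes of the log2 value minus the gene's mean over 6 arrays) on each array (x axis). Mrpl and Mrps points lie together on every array and are highest on placebo replicate 3, while the respiratory chain and ATP synthase genes are highest on Lira replicate 2.

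In tissue RNA, fewer cells of a type and less RNA per cell cannot be told apart, so the cell type markers are given beside these values. Of 7 cardiomyocyte markers 7 had higher means with Lira, and their summed signal ran from 172054 to 181367 with placebo and 172593 to 215198 with Lira. Of 5 fibroblast markers 4 were higher, with sums of 8567 to 9465 with placebo and 9715 to 11529 with Lira. Of 6 smooth muscle and pericyte markers 3 were higher, with sums of 9255 to 10388 with placebo and 10664 to 12084 with Lira. Both pairs of ranges stood apart because of 1 gene each: without Dcn the fibroblast sums were 1700.1 to 2637 with placebo and 2228 to 2823 with Lira, and without Acta2 the smooth muscle sums were 8181 to 9266 with placebo and 8707 to 9240.0 with Lira, and these overlap. Endothelial (5 of 5 higher) and leukocyte markers (5 of 6 higher) overlapped, with sums of 2015 to 2532 with placebo and 2316 to 2545 with Lira, and of 1246 to 1435 with placebo and 1330.3 to 1658 with Lira. On placebo replicate 3, where the members were highest, the cardiomyocyte, fibroblast and endothelial sums were all the lowest of the 6 arrays. On Lira replicate 1, where the members were lowest, the fibroblast, smooth muscle and leukocyte sums were the highest, with Acta2, smooth muscle actin, at 3377 against 1074 to 1579 on the other 5 arrays. Of 3 fat cell markers 2 were higher, and their sums overlapped, at 16009 to 17584 with placebo and 16295 to 18696 with Lira. Fabp4 gave 15996 to 17570 with placebo and 16284 to 18679 with Lira. Adipoq was at most 16.6 on any array and Lep at most 25.2. 0 of the 29 markers tested passed the adjusted threshold in limma, with 3 higher (10.3%, against 2.91% of all genes tested) and 0 lower (against 3.12%) at an unadjusted p under 0.05. Their part in the members' values was not tested.

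The other genes of mitochondrial protein synthesis were taken from lists, and 0 of the 71 tested passed the adjusted threshold in limma, with 0 higher (2.91% of all genes tested) and 3 lower (4.23%, against 3.12% of all genes tested) at an unadjusted p under 0.05. 4 further mitoribosome proteins have names of another form. Chchd1 and Gadd45gip1 were lower on average, at 2562 ± 202 and 2303 ± 188 and at 941 ± 109.9 and 835 ± 46.9 (SD, placebo and Lira, 3 mice each), Dap3 and Ptcd3 differed by 0.046 and -0.032, and the list had a median of -0.092. Of 11 translation factors 7 were lower and 4 higher (median -0.041), with 0 at an unadjusted p under 0.05. The elongation factor pair Tsfm and Tufm had lower means, with Tsfm at 444, 450.0 and 416 with placebo and 361, 391 and 398 with Lira. Every Lira mouse was below every placebo mouse for Tsfm, with a difference of -0.18 ± 0.11 (adjusted p = 0.87), while the groups of Tufm overlapped (-0.17 ± 0.10).

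Of 19 mitochondrial aminoacyl-tRNA synthetases and amidotransferase subunits, 11 were higher and 8 lower (median 0.017). Qrsl1, the catalytic subunit that makes glutaminyl-tRNA in mitochondria, gave 725, 749.7 and 848 with placebo and 582, 608 and 646 with Lira. Its groups did not overlap, and the difference was -0.33 ± 0.10 (adjusted p = 0.61, limma). The prolyl-tRNA synthetase Pars2 had the highest difference on any of these lists and was dim, at 60.2, 43.6 and 58.7 with placebo and 61.2, 88.9 and 77.2 with Lira. Its groups did not overlap either, and the difference was 0.38 ± 0.21 (adjusted p = 0.86, limma). Of 23 genes for mitoribosome assembly and rRNA modification 12 were lower and 11 higher (median -0.037). Rcc1l, which takes part in the assembly of the large subunit, had the largest difference on any of these lists. Its signals were 245, 239 and 198 with placebo and 139, 132 and 167 with Lira. Every Lira mouse lay below every placebo mouse, and the difference was -0.59 ± 0.14 (unadjusted p = 0.0012, adjusted p = 0.40, limma). Mpv17l2, an inner membrane protein needed for the same assembly, gave 235, 223 and 244 with placebo and 225, 160.5 and 167 with Lira, a difference of -0.33 ± 0.14 with overlapping groups.

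Upstream and downstream of the ribosome 0 genes passed the adjusted threshold. Of 11 genes for mitochondrial transcription and mRNA stability 7 were lower and 4 higher (median -0.037), with the terminator family member Mterf2 at -0.16 ± 0.11 and the packaging factor Tfam at -0.11 ± 0.10. Of 3 genes for insertion of mitochondrial products into the inner membrane 1 was higher and 2 lower, with the insertase Cox18 at -0.16 ± 0.13 and Letm1 at 0.10 ± 0.10. The groups of Letm1 did not overlap, at 519.8, 560.3 and 514 with placebo and 578, 570.5 and 563 with Lira.

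A gene's probe sets did not always give the same sign. 42 members have 2 or more probe sets, and in 15 of them all had the sign of the brightest, which was used. Over all 156 member probe sets 99 were lower and 57 higher with Lira. Among the 116 with a mean signal of at least 100, 82 were lower and 34 higher. Of 27 members with 2 or more such probe sets, 13 had the same sign on all and 14 had both signs. When all probe sets of a gene were averaged, 50 members had lower means and 26 higher ones, and the median was -0.031.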

How the data were processed

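Left ventricular RNA of 3 placebo and 3 Lira mice, grouped by the agent in the labels, was measured on 1 array per mouse. The values that the authors deposited are intensities on a linear scale, 1 per probe set. The submitters' processing notes name Affymetrix Expression Console. Its version, the summarisation and detection calls were not among the sources used here. Scaling to 1 trimmed mean shows only changes relative to other genes.

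Of 45101 probe sets, 64 controls were left out. Of the rest 34945 name 1 gene in the platform annotation (34741 matched RefSeq by gene ID), 932 name several and 9160 were not in the name table; the last 2 kinds were not tested. Each gene was represented by its probe set with the highest mean, and genes in the lowest 30% by mean were dropped, so that the dimmest gene tested had a mean signal of 23.7. Values were taken as log2(signal + 16), which understates changes of dim genes, and compared with limma 3.58.1 under R 4.3.3 (lmFit and trended eBayes, two-sided p, adjusted by Benjamini-Hochberg over 12736 genes). The code was tested on simulated data.

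The members and lists were chosen with earlier results of these data known. Named members are the 6 with the smallest p in each direction in Mrpl and in Mrps and 13 fixed for their role; of each other list the 2 with the smallest p; others were added after their values were seen. Promoters are from RefSeq on GRCm38.p6, 1 window per gene. Alternatives were quantile normalisation, median centring, pseudocounts of 1 and 64, no filter and a 50% filter, a robust prior, array weights, the mean of probe sets, no variance trend, a replicate block, subunits by structure and each array left out.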

Additional observations from a re-analysis of the deposited data

How the results depend on the processing

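The count of members past an adjusted p of 0.05 was 0 under all 17 alternatives of the fit, with the lowest adjusted p of a member at 0.43, for Mrpl49 with the 50% filter. At an unadjusted p under 0.05 in limma, the count of higher members was 1, also without each array in turn, except 2 with the mean of probe sets. The count of lower members, 1 as reported, was 2 with quantile normalisation and with no filter, 3 with the mean of probe sets and with the replicate block, 0 with median centring and without the variance trend, and 0 (without Lira replicate 2) to 4 (without placebo replicate 1) with single arrays left out. Over all genes tested the share lower at that p was 2.25% to 3.78% under these settings, 3.04% without placebo replicate 1. The share higher was 2.15% to 3.67%, and 2.51% with the mean of probe sets. Whether replicate numbers pair the mice is not given. Same-numbered arrays correlated at -0.030, 0.083 and -0.090 over all genes after removal of the group means, which cannot settle it. Among the members, replicate 3 was the highest placebo array in 56 of 76 and the highest Lira array in 47. The block is given for its count alone. With single arrays left out, the median difference was -0.088 to -0.00020 for Mrpl and -0.080 to -0.022 for Mrps, and Mrpl minus Mrps, -0.016 as reported, was -0.025 to 0.030. It was 0.015 with the mean of probe sets, so neither subunit was the lower one throughout. Of 561 values of the 33 named members under these alternatives 549 moved by less than their SE. Mrpl1 changed sign with the mean of probe sets, to 0.13, and so did Mrpl58, from -0.061 to 0.31, the highest member in that setting. That setting averages the probe sets of a gene with equal weight. The second probe set of Mrpl58, with a mean signal of 24.5, differed by 0.68. The probe sets of Mrpl1 differed by -0.14, 0.0066 and 0.51, the last at a mean signal of 19.1. 10 members whose difference was under its SE, Mrpl58 among them, changed sign in 19 values. The cause of the changes under the other settings was not tested. With no detection calls, a probe set's signal could not be set against background, but the dimmest probe set used for a member had a mean of 264.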
